A study of Arabidopsis thaliana with 36 samples.

Results

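The roots of Arabidopsis thaliana seedlings were compared 15 min after a move to fresh medium with 10 mM KNO3 and at 0 min, before any such move. The libraries were chosen by their titles, the 4 of 15 min on 10 mM and the 4 of 0 min on 1 mM, which are 8 of the 36 libraries of the series. All genes were examined, and libraries with the same batch number were paired. All plants were wild-type Col-0, 7 days old, raised on mesh on medium holding 1 mM KNO3, and moved 2 h after dawn. At 15 min on 10 mM KNO3 the mesh lay on a fresh plate with the higher supply. At 0 min the mesh was lifted and put back on its own plate, so these roots were touched too, without meeting fresh medium. A further group of 4 libraries, 15 min on fresh 1 mM KNO3, was used beside these where stated. By its title the series deals with early root responses to nitrogen before lateral roots are initiated. The roots of 2 plates were joined for each replicate. Since the labels do not say how far the batches were grown apart, the p-values speak only of the scatter among these libraries, which may be technical.

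Roots take up nitrate through transporters of the NPF and NRT2 families. They reduce it to nitrite with nitrate reductase and then to ammonium with nitrite reductase, and the genes of these steps are classic early nitrate targets. Touch, wounding and other disturbance raise calcium in root cells within moments and start transcripts of calmodulin-like proteins, of WRKY and ERF transcription factors and of the jasmonate pathway. In that pathway JAZ proteins hold back the transcription factor MYC2 until the hormone, bound by the receptor COI1, leads to their breakdown. The JAZ genes are themselves MYC2 targets, so their transcripts are a common readout of the pathway.

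The libraries were made by BrAD-seq, a digital gene expression method that reads the 3' ends of poly-A transcripts, and their totals ran from 2008116 to 6649424 counts at 15 min on 10 mM and from 1870909 to 6811924 at 0 min. Replicate 1 was the shallowest in both groups. Of the libraries that entered the fit only for its estimate of spread, replicate 4 of 1 mM at 45 min stood apart, with the lowest total (1376404) and a median correlation with its group mates of 0.9117. Levels are given as CPM, TMM-scaled counts relative to library size, in the order of replicates 1 to 4. Differences are log2 fold changes ± SE from edgeR's quasi-likelihood test with the batch as a block, and a gene is called where its Benjamini-Hochberg adjusted p over the 18768 genes tested was at most 0.05. Photosynthesis transcripts, which would mark shoot tissue, summed over 7 tested genes to 37.25 to 61.73 CPM at 15 min on 10 mM and to 50.7 to 68.32 CPM at 0 min. Of the tested markers of root hairs (8), endodermis (9), xylem (8), the root tip (5) and photosynthesis (7), 0 were called and none was at 0 in all libraries of a group. Transcripts of all 4 root tissues were thus read in both groups.

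Within 15 min on 10 mM KNO3, 1338 genes differed from 0 min (7.13% of those tested), 1044 higher (5.56%) and 294 lower (1.57%). Large changes were nearly all upward: 576 genes rose at least 2-fold (3.07%) and 205 at least 4-fold, while 46 fell at least 2-fold (0.245%) and 3 at least 4-fold. The median change was -0.018 over all genes tested. Among called genes, 1014 of the 1044 that rose and 278 of the 294 that fell had 1 direction in 4 of 4 batches. All 4 libraries at 15 min on 10 mM lay above all 4 at 0 min for 1099 genes (5.86%) and below them for 517 (2.75%).

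**Figure D1:**
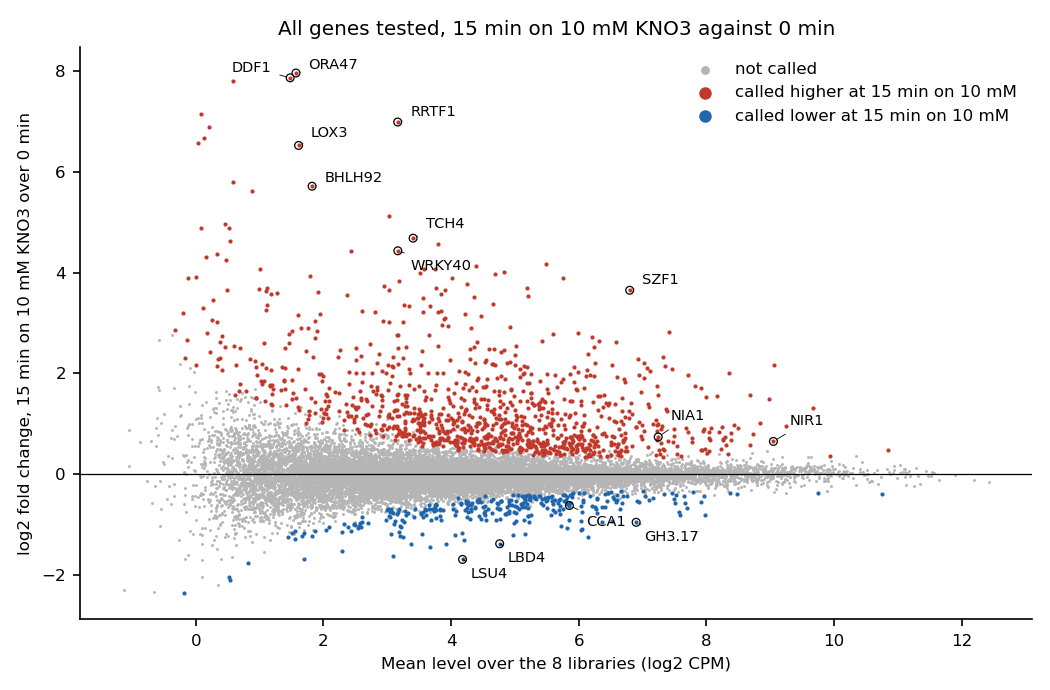
Each point is 1 of the 18768 genes tested, placed by its mean level over the 8 libraries (x axis, log2 CPM) and its fitted log2 fold change at 15 min on 10 mM over 0 min (y axis). Red marks 1044 genes called higher, blue 294 called lower and grey the rest. The red points reach far from 0 while the blue ones stay near it, and fitted changes of genes with few reads at 0 min, such as ORA47 and DDF1, are not bounds.

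Among the 10 steepest rises with a mean log2 CPM of at least 1 were 4 transcription factors of the ERF and DREB family, ORA47, DDF1, RRTF1 and ERF13. The others were the lipoxygenase gene LOX3, the bHLH gene BHLH92, the touch gene TCH4, the defence factor WRKY40 and the less described AT2G22880 and AT4G27654. RRTF1 (AT4G34410), a redox-responsive ERF, had 83.6, 61.3, 112 and 62.98 CPM at 15 min on 10 mM, against 1.55, 0.298, 0.142 and 0.963 CPM at 0 min. Every library at 15 min was above all at 0 min, and the log2 fold change was 7.00 ± 0.32 (edgeR adjusted p = 2.29e-22), or 6.26 without batch 3 and 7.61 without batch 4. ORA47 (AT1G74930), an ERF that activates jasmonate synthesis genes, had 336 reads in all at 15 min on 10 mM and 1 at 0 min, a ratio of 353.6 (95% counting interval 63.04 to 14010). Without replicate 1 at 0 min, which held that read, the rise was at least 105.6-fold, taking 3 counts over all 0 min libraries as the lower limit, and without batch 3 the ratio was 164.0. DDF1 (AT1G12610), a DREB factor known to induce gibberellin breakdown, had 281 reads at 15 min on 10 mM and 1 at 0 min. Their ratio was 295.8 (counting interval 52.65 to 11720), and it was at least 61.17-fold higher without replicate 3 at 0 min. These intervals and floors cover counting error only. AT2G22880, a VQ motif gene, rose by 4.44 ± 0.33 (5.24 without replicate 4 at 0 min and 5.26 without batch 4).

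Of 18 tested ERF and DREB genes of the list, 14 rose and 0 fell, with a median log2 fold change of 2.90. Members of this and the other lists were chosen with earlier results of these data known, so their counts are a description. The list does not hold every such gene. The DREB-type gene tny (AT5G25810), outside it, was called lower, averaging 11.25 CPM at 15 min on 10 mM and 28.87 CPM at 0 min. ERF13 (AT2G44840) had 32.2, 29.3, 66.2 and 38.8 CPM at 15 min on 10 mM, against 2.07, 0.895, 0.995 and 1.28 CPM at 0 min. Its libraries did not overlap between the groups, and it rose by 5.13 ± 0.35 (edgeR adjusted p = 1.28e-16). CBF2 (AT4G25470), of the cold-acclimation DREB group, had 73 reads at 15 min on 10 mM and 2 at 0 min, which gave a ratio of 38.42 with a 95% counting interval of 10.26 to 323.2. RAP2.6 (AT1G43160) and RAP2.6L (AT5G13330) had 0.07 ± 0.24 and 0.02 ± 0.30 and were not called. CBF1, CBF3, ORA59 and ERF115 had too few reads to be tested, with 10, 15, 5 and 0 at 15 min on 10 mM. At 0 min they had 0, 27, 6 and 1, so CBF3 had more reads there. ORA47, DDF1 and CBF2, with 1 or 2 reads at 0 min, passed the filter on low counts through groups where they were higher. The count of 14 and the median are therefore not free of that filter. The same holds for JAZ8 and LOX3 in the jasmonate lists.

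WRKY factors, which act in defence and wound transcription, showed 13 higher and 0 lower of 17 tested, with a median of 1.66. WRKY40 (AT1G80840) had 42.3, 31.2, 56.2 and 35.3 CPM at 15 min on 10 mM, against 1.55, 0.597, 1.99 and 2.73 CPM at 0 min, without overlap, and rose by 4.44 ± 0.29 (edgeR adjusted p = 6.58e-17). WRKY46 (AT2G46400) averaged 104 ± 37.8 CPM at 15 min on 10 mM and 6.40 ± 1.86 CPM at 0 min (SD, n = 4 each), and WRKY53 and WRKY18 rose by 3.69 ± 0.24 and 3.51 ± 0.23. WRKY60, WRKY11, WRKY26 and WRKY28 were not called. Of 10 zinc finger genes of the ZAT and AZF group, repressors induced by stress, 7 rose and 0 fell (median 1.04). ZAT10 (AT1G27730) had 121, 98.9, 175 and 111 CPM at 15 min on 10 mM, against 25.9, 13.4, 14.8 and 21.8 CPM at 0 min. Its lowest library at 15 min stood well above its highest at 0 min, and the change was 2.78 ± 0.19. Of 8 MYB factors 5 rose (median 0.94), with MYB15 at 3.25 ± 0.28 and MYB77 (AT3G50060), which acts in auxin responses of lateral roots, at 2.03 ± 0.32.

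Defence signalling showed 17 higher and 0 lower of 20 tested, with a median of 1.64. SZF1 (AT3G55980), a tandem zinc finger protein of salt and defence responses, had 420.3, 369, 494 and 326 CPM at 15 min on 10 mM, against 27.9, 29.8, 35.97 and 29.5 CPM at 0 min. The groups were far apart, and the change was 3.65 ± 0.15 (edgeR adjusted p = 1.06e-23). DIC2 (AT4G24570), a mitochondrial dicarboxylate carrier, and HSPRO2 (AT2G40000) rose by 4.02 ± 0.26 and 3.70 ± 0.23. AP2C1 (AT2G30020), a phosphatase that switches off stress MAP kinases, rose by 2.49 ± 0.18. MPK3 (AT3G45640), a stress MAP kinase, rose by 2.11 ± 0.14, and its relative MPK6 was at -0.02 ± 0.12 and not called. The ubiquitin ligase genes PUB22 and PUB23 rose by 1.39 ± 0.18 and 1.98 ± 0.16. PUB24 rose by 0.91 ± 0.24 but was not called without replicate 3 or 4 at 15 min on 10 mM, replicate 3 at 0 min, or batch 3 or 4. RBOHD (AT5G47910), an oxidase that makes reactive oxygen, rose by 1.70 ± 0.16.

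**Figure D2:**
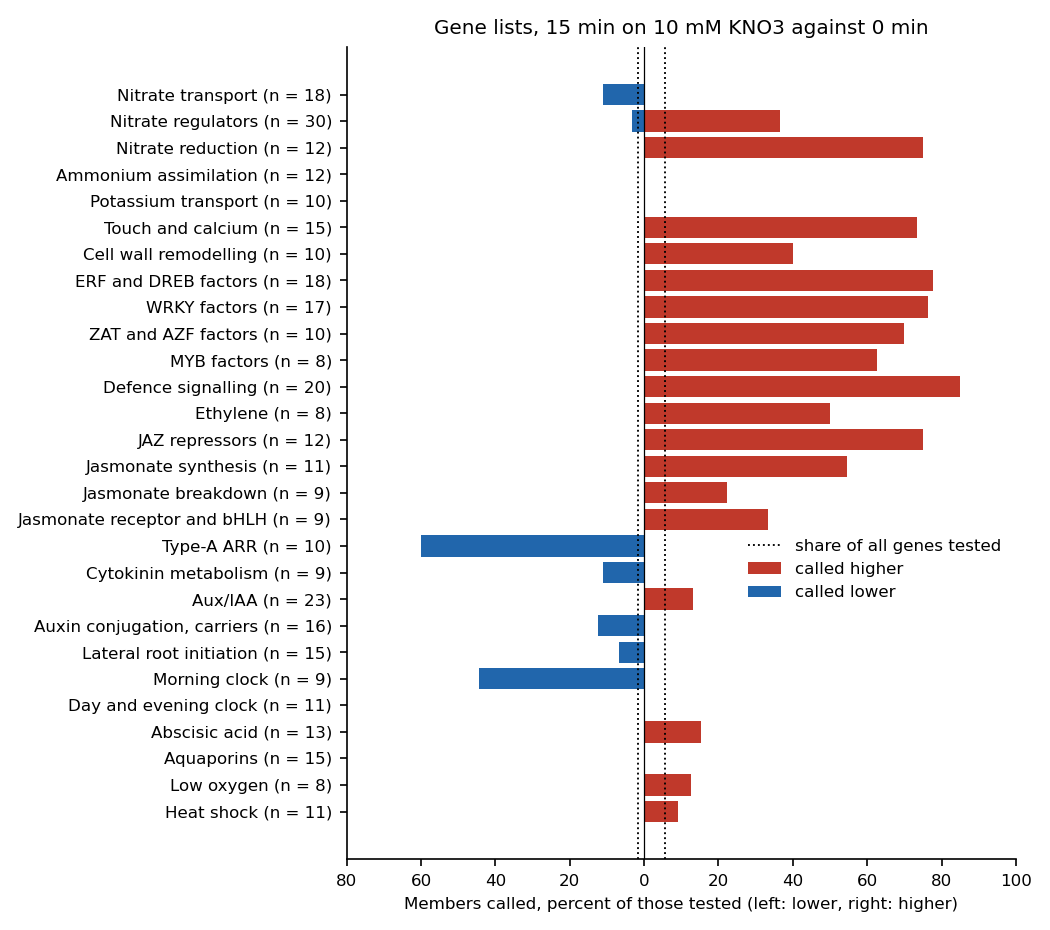
For each of 28 gene lists, the bar to the right gives the percent of tested members called higher at 15 min on 10 mM and the bar to the left the percent called lower; n is the number tested. Dotted lines mark the shares over all genes tested, 5.56% and 1.57%. The lists were chosen with earlier results of these data known, so a bar past a line is not a test. Stress, touch and jasmonate lists extend to the right, type-A ARR and morning clock genes to the left, and ammonium, potassium and aquaporin lists have no bar.

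Touch and calcium genes moved with them: 11 of 15 tested rose and 0 fell, with a median of 1.40. TCH4 (AT5G57560), a xyloglucan endotransglucosylase/hydrolase of the cell wall named for its response to touch, had 40.8, 44.1, 58.6 and 49.4 CPM at 15 min on 10 mM, against 2.07, 2.09, 1.14 and 2.57 CPM at 0 min. The groups did not overlap, and the change was 4.69 ± 0.30 (edgeR adjusted p = 3.28e-17). CML37 (AT5G42380), a calmodulin-like calcium sensor, had 92.6, 107, 181 and 144 CPM at 15 min on 10 mM, against 5.18, 14.9, 13.2 and 11.1 CPM at 0 min, again without overlap. CML38 and CML39 rose by 3.65 ± 0.24 and 3.03 ± 0.29, while MCA1, which codes for a stretch-activated calcium channel, was at -0.14 ± 0.13 and not called. Of 10 wall remodelling genes 4 rose and 0 fell (median 0.43), among them EXO (AT4G08950) at 2.09 ± 0.18 and XTH23 (AT4G25810) at 1.35 ± 0.17. Expansin genes EXPA1 and EXPA17 were at -0.15 ± 0.16 and -0.35 ± 0.18 and were not called, though EXPA17 was called lower with only the 8 libraries compared.

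A 6-letter motif, CGCGTT, is the core of the rapid stress response element, to which calcium-linked CAMTA factors bind. It was searched on both strands in the 250 bases before the annotated start of each gene in RefSeq's TAIR10.1, an assembly whose name differs from the TAIR10 of the submitters' processing notes. It was found in 13.7% of the promoters of the 205 genes that rose at least 4-fold, 9.87% of the 1044 that rose, 0.68% of the 294 that fell and 2.84% of all 18752 tested genes with a promoter. The other motifs were also searched on both strands, and none of them lies inside another. The W-box core TTGAC, bound by WRKY factors, was in 62.0%, 56.3%, 46.6% and 45.7% of the same sets. The GCC-box GCCGCC was in 2.44%, 2.01%, 0.68% and 1.94%, and the DRE core GCCGAC in 2.93%, 3.93%, 3.06% and 2.98%. The evening element AAAATATCT was in 4.39%, 3.16%, 2.72% and 2.43%. The following 60-base stretches of called genes are shown because they hold CGCGTT, in capitals, in either strand's reading (AACGCG is the other strand). They are DIC2 (chr4:12686293-12686352, + strand), XTH18 (chr4:14827255-14827314, - strand), the lipoxygenase gene LOX4 (chr1:27308307-27308366, + strand) and ERD15 (chr2:17269098-17269157, + strand), a dehydration-induced gene, each 5' to 3' along the gene.
DIC2: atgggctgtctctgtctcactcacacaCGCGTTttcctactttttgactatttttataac
XTH18: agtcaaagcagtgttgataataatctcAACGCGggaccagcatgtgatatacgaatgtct
LOX4: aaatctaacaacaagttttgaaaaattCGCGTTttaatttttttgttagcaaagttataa
ERD15: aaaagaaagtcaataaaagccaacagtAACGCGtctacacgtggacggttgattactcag
A match is a description of the letters and not a shown binding site. XTH18 (AT4G30280) rose by 0.68 ± 0.16 (0.55, edgeR adjusted p = 0.134, without batch 3). ERD15 (AT2G41430) was among the 4 called genes with the largest gain in CPM, with 1211, 1176, 1276 and 1499 CPM at 15 min on 10 mM, against 449, 521, 526 and 573 CPM at 0 min. The others were SRC2 (AT1G09070), named for induction by cold, SAG21 (AT4G02380), an oxidative stress gene, and GSTF8 (AT2G47730), a glutathione transferase, at 2.16 ± 0.13, 1.49 ± 0.19 and 0.48 ± 0.12. GSTF8 was not called with no block (edgeR adjusted p = 0.391), without replicate 4 at 15 min on 10 mM, or without batch 3 or 4.

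**Figure D3:**
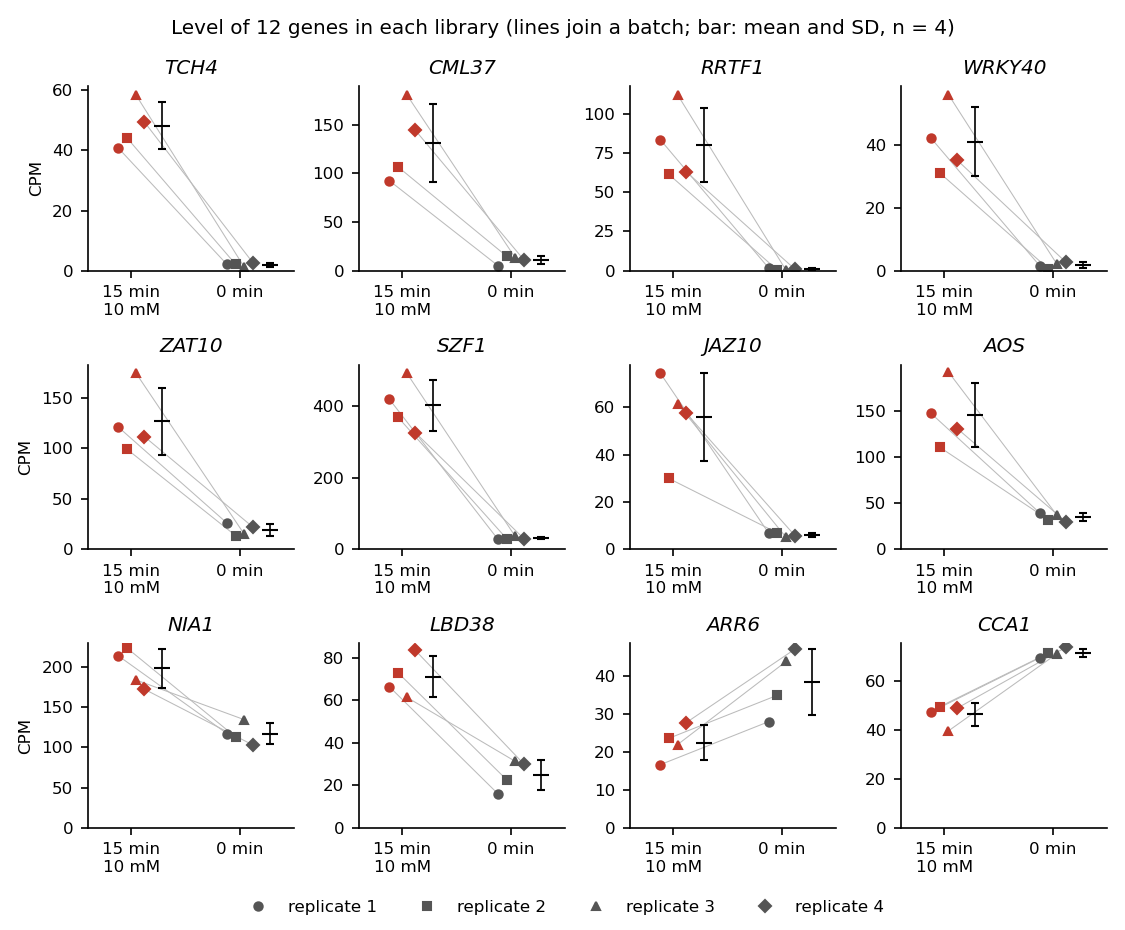
CPM (y axis, from 0) of 12 genes in each of the 4 libraries at 15 min on 10 mM (red, left) and at 0 min (grey, right). Marker shapes give the replicate, grey lines join libraries of 1 batch, and the black bar is mean and SD. The 10 genes from TCH4 to LBD38 are higher at 15 min on 10 mM in every library, and ARR6 and CCA1 are lower.

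Jasmonate genes rose among the repressors, the enzymes and the transcription factors of the pathway. Of 12 JAZ repressor genes 9 rose and 0 fell, with a median of 2.58, and 2.58 also with JAZ8 at its lower bound. JAZ8 (AT1G30135) had 2.52, 5.31, 9.23 and 4.41 CPM at 15 min on 10 mM and no read in any library at 0 min. Its 94 reads against 0 made it at least 32.98-fold higher, and leaving out single libraries or batches moved this bound between 16.45 (without batch 3) and 37.38. Without replicate 3 at 0 min it was 20.46. JAZ10 (AT5G13220) had 74.5, 29.9, 61.5 and 57.5 CPM at 15 min on 10 mM, against 6.73, 6.86, 4.98 and 5.78 CPM at 0 min. Replicate 2 was the lowest at 15 min but still above all libraries at 0 min, and the change was 3.18 ± 0.22 (edgeR adjusted p = 3.60e-16). JAZ7 and JAZ5 rose by 4.08 ± 0.28 and 3.49 ± 0.23. JAZ4, JAZ11 and JAZ12 were at -0.21 ± 0.25, 0.06 ± 0.19 and -0.02 ± 0.10 and were not called.

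Among 11 tested genes of jasmonate synthesis 6 rose and 0 fell (median 1.16). Of the 11, 2 had negative estimates, the lowest at -1.60, and neither was called. The lipoxygenases, which make the first step, had the largest changes. LOX3 (AT1G17420), a 13-lipoxygenase, had 288 reads at 15 min on 10 mM and 3 at 0 min, a ratio of 101.0 (95% counting interval 34.23 to 492.8) that was 67.51 without replicate 4 and 188.1 without replicate 3 at 0 min. LOX4 (AT1G72520) rose by 3.66 ± 0.29. AOS (AT5G42650), the allene oxide synthase that follows, had 147, 110.4, 192 and 131 CPM at 15 min on 10 mM, against 39.3, 31.9, 36.7 and 29.8 CPM at 0 min. It rose by 2.07 ± 0.15, and the next enzymes AOC3 (AT3G25780) and OPR3 (AT2G06050) by 2.16 ± 0.13 and 1.16 ± 0.13. JAR1, which makes the active isoleucine conjugate, was at -0.31 ± 0.13 and not called. Of 9 tested genes that break the hormone down 2 rose (4 with only the 8 libraries compared or without replicate 4 of 1 mM at 45 min), CYP94C1 (AT2G27690) at 2.61 ± 0.47 and CYP94B3 (AT3G48520) at 2.01 ± 0.22.

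Of 9 receptor and bHLH genes 3 rose. MYC2 (AT1G32640) had 239.6, 229.8, 358 and 225 CPM at 15 min on 10 mM, against 99.4, 80.8, 86.6 and 86.2 CPM at 0 min, and rose by 1.57 ± 0.12 (edgeR adjusted p = 2.87e-15). BHLH92 (AT5G43650) and JAM1 (AT2G46510), a bHLH repressor of jasmonate responses, rose by 5.72 ± 0.48 and 3.19 ± 0.40. The related factors MYC3 and MYC4 were at -0.37 ± 0.13 and -0.32 ± 0.13, and the receptor COI1 at -0.07 ± 0.16, none of them called here (MYC3 was called with only the 8 libraries compared, edgeR adjusted p = 0.0252, without replicate 3 at 15 min on 10 mM, and without replicate 4 of 1 mM at 45 min).

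MYC2 and its relatives bind the G-box, CACGTG. In the 250 bases before the start it occurred in 4 of 12 JAZ genes, 6 of 18 ERF and DREB genes, 11.2% of genes that rose at least 4-fold, 8.91% of those that rose, 8.16% of those that fell and 7.36% of all genes tested with a promoter. The 5 stretches below are of genes with steep rises that hold it (capitals, the copy nearest the start), in TAIR10.1: RRTF1 (chr4:16451715-16451774, + strand), BHLH92 (chr5:17534824-17534883, - strand), JAZ7 (chr2:14572969-14573028, + strand), JAZ8 (chr1:10596292-10596351, + strand) and AOS (chr5:17099596-17099655, - strand).
RRTF1: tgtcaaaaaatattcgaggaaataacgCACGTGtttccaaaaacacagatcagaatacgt
BHLH92: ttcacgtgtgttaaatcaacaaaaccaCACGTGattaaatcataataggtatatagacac
JAZ7: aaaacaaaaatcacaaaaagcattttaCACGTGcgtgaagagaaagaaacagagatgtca
JAZ8: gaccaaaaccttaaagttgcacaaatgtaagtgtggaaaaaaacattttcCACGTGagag
AOS: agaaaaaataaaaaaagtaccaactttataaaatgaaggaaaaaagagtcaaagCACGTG
BHLH92 held 2 copies in its 250 bases and the others 1 each. The G-box was in 0 of 9 jasmonate breakdown genes, 2 of 11 synthesis genes and 1 of 9 receptor and bHLH genes. Of other lists with called rises, it was in 1 of 17 WRKY, 2 of 20 defence signalling and 4 of 23 Aux/IAA genes. It was in 2 of 8 low oxygen, 2 of 30 nitrate regulator and 1 of 13 abscisic acid genes. It was absent from the 15 touch and calcium, 10 ZAT and AZF, 10 wall remodelling, 8 MYB, 8 ethylene and 12 nitrate reduction genes. Of lists with called falls and no called rise, the G-box was in 4 of 9 morning clock genes and 0 of 10 type-A ARR genes. Of the others, it was in 1 of 18 nitrate transporters and 1 of 9 cytokinin metabolism genes. It was in 1 of 16 auxin conjugation and transport genes and 0 of 15 lateral root initiation genes. It was also in 3 of 11 day and evening clock genes and 3 of 11 heat shock genes.

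Ethylene genes showed 4 higher and 0 lower of 8 tested (median 0.34), a count of 2 without batch 2 or batch 3. Of those, ACS6 (AT4G11280), a synthase of the ethylene precursor, had 43.3, 66.004, 91.8 and 68.9 CPM at 15 min on 10 mM, against 12.4, 14.9, 20.3 and 22.9 CPM at 0 min, without overlap, and rose by 1.93 ± 0.17.

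Of 12 tested genes that reduce nitrate or supply the reductant, 9 rose, each by less than 2-fold, and 0 fell. All 12 had a positive estimate, and the median was 0.45. NIA1 (AT1G77760), a nitrate reductase, had 213, 223, 184 and 172 CPM at 15 min on 10 mM, against 117, 113, 134 and 103 CPM at 0 min. All libraries at 15 min were above all at 0 min, and the change was 0.74 ± 0.16 (edgeR adjusted p = 7.80e-04). NIA2 (AT1G37130), the second nitrate reductase, had 411, 425, 406 and 315 CPM at 15 min on 10 mM, against 227, 275, 279.8 and 247 CPM at 0 min, and rose by 0.58 ± 0.12. NIR1 (AT2G15620), nitrite reductase, had 585, 645, 751 and 713 CPM at 15 min on 10 mM, against 291, 417, 594 and 423 CPM at 0 min. Here the groups overlapped, since replicate 3 was high at 0 min, but each batch rose and the change was 0.65 ± 0.13 (edgeR adjusted p = 2.78e-04). G6PD3 (AT1G24280), which supplies NADPH in plastids, and UPM1 (AT5G40850), of siroheme synthesis, rose by 0.66 ± 0.16 and 0.61 ± 0.12. The count of 9 dropped to 5 with no block. It was also 5 where replicate 4 at 15 min on 10 mM, replicate 1 or 2 at 0 min, batch 2 or batch 4 was left out.

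Regulators known from nitrate responses showed 11 higher and 1 lower of 30 tested (median 0.30). LBD38 (AT3G49940), 1 of 3 related repressors of nitrogen-responsive genes, had 66.4, 73.01, 61.5 and 83.5 CPM at 15 min on 10 mM, against 16.04, 22.7, 31.3 and 30.001 CPM at 0 min, and rose by 1.44 ± 0.17 (edgeR adjusted p = 4.04e-09). LBD37 (AT5G67420) had 181, 151, 176 and 183 CPM at 15 min on 10 mM, against 75.05, 74.3, 70.95 and 82.8 CPM at 0 min. Neither gene overlapped between the groups, and LBD37 and LBD39 rose by 1.19 ± 0.12 and 1.14 ± 0.17. The myb-like genes AT1G25550 and AT3G25790 rose by 1.42 ± 0.14 and 0.88 ± 0.17, while HRS1 (AT1G13300), a repressor of that family, was at 0.31 ± 0.15 and not called. BT1 (AT5G63160) and bZIP1 (AT5G49450), a factor of the nutrient response, rose by 1.29 ± 0.23 and 1.65 ± 0.52, though bZIP1 was not called with no block (edgeR adjusted p = 0.0829) or in 11 of 12 fits that left out a library or a batch (0.051 to 0.294). CBL1 (AT4G17615), a calcium sensor, rose by 1.80 ± 0.15. CPK32 and CPK10, calcium-dependent kinases known to act on nitrate-responsive transcription, rose by 1.39 ± 0.12 and 0.73 ± 0.12, while CPK30 was at -0.09 ± 0.14 and not called. BT2 (AT3G48360), a BTB and TAZ domain protein of nitrate use, averaged 10.2 ± 3.93 CPM at 15 min on 10 mM and 4.67 ± 0.534 CPM at 0 min (SD, n = 4 each), a change of 0.99 ± 0.34 that missed the threshold (edgeR adjusted p = 0.0765). It was called with no filter on low counts, with only the 8 libraries compared, and without replicate 2 at 15 min on 10 mM (adjusted p 0.00219, 0.00304 and 0.0385). The only called fall was NLP7 (AT4G24020), a factor that acts in nitrate sensing, at -0.53 ± 0.16 (edgeR adjusted p = 0.0306), not called with no block (0.0977) or in 10 of 12 fits that left out a library or a batch (up to 0.247).

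Of 18 tested nitrate transporters 0 rose and 2 fell (1 higher and 2 lower with only the 8 libraries compared), with a median of 0.02 beside -0.018 over all genes. NRT2.1 (AT1G08090), the main high-affinity transporter, had 384, 362, 418 and 411 CPM at 15 min on 10 mM, against 374, 329.6, 402 and 369 CPM at 0 min. NPF6.3 (AT1G12110), a transporter and nitrate sensor, had 158, 162, 170.2 and 173 CPM at 15 min on 10 mM, against 186, 166, 175 and 138 CPM at 0 min. Both overlapped between the groups, at 0.10 ± 0.16 and 0.01 ± 0.12, and neither was called. AT3G45680, of the major facilitator superfamily, fell by 0.62 ± 0.17 on the log2 scale (not called without replicate 2 at 0 min or without batch 2). NPF7.3 (AT1G32450), which loads nitrate into the xylem, was called at -0.36 ± 0.11, but not with no block (edgeR adjusted p = 0.622) nor when any 1 of the 8 libraries was left out (0.0514 to 0.183). Bulk roots cannot separate fewer cells of a type from less RNA per cell. Of 12 ammonium assimilation genes and 10 potassium transport genes 0 were called, with medians of -0.0048 and -0.11. With only the 8 libraries compared, 1 ammonium gene was called higher and 1 lower, and with no filter on low counts 1 higher. Potassium rose with nitrate in the 10 mM medium, and HAK5 (AT4G13420), a potassium starvation gene, was at 0.34 ± 0.19 and not called.

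Of 10 type-A ARR genes, feedback inhibitors that cytokinin induces, 0 rose and 6 fell, all 10 had negative estimates, and the median was -0.56. At 15 min on fresh 1 mM KNO3, against the same 0 min libraries, 7 were called lower and the median was -0.64. ARR6 (AT5G62920) had 16.6, 23.6, 21.9 and 27.7 CPM at 15 min on 10 mM, against 27.9, 34.9, 43.8 and 47.01 CPM at 0 min. It was lower in each batch and did not overlap, with a change of -0.77 ± 0.12 (edgeR adjusted p = 7.00e-06). ARR7, ARR9 and ARR8 were at -0.69 ± 0.19, -0.65 ± 0.15 and -0.52 ± 0.12, and these 3 calls were lost without batch 3 (edgeR adjusted p = 0.178, 0.0801 and 0.0936). ARR7 was not called in 6 of 12 fits that left out a library or a batch, and ARR3 and ARR4, also called lower, not in 4 and 9. With no block ARR7 and ARR9 were not called either (edgeR adjusted p = 0.0798 and 0.0866). The count of 6 was 2 with no block, 3 without replicate 3 at 0 min and 1 without batch 3. Of 9 genes of cytokinin synthesis and breakdown 0 rose and 1 fell, CKX5 at -0.69 ± 0.22, a call lost with no block (edgeR adjusted p = 0.0559) and in 9 of 12 fits that left out a library or a batch (up to 0.319).

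Among the listed auxin genes the smallest adjusted p was that of GH3.17 (AT1G28130), which joins auxin to amino acids and so inactivates it. It had 84.1, 92.3, 76.2 and 88.99 CPM at 15 min on 10 mM, against 169, 141, 167 and 189 CPM at 0 min, without overlap, and was at -0.96 ± 0.12 (edgeR adjusted p = 1.69e-08). PIN5 (AT5G16530), an auxin carrier of the endoplasmic reticulum, was at -0.72 ± 0.18, not called without replicate 4 at 15 min on 10 mM or without batch 3 or 4. These were the 2 falls among 16 genes of auxin conjugation and transport, of which 0 rose. Of 23 Aux/IAA genes, early auxin targets, 3 rose and 0 fell (median 0.01). IAA2 (AT3G23030) had 50.8, 58.2, 64.9 and 67.5 CPM at 15 min on 10 mM, against 19.1, 39.1, 33.8 and 42.4 CPM at 0 min, and rose by 0.83 ± 0.14. The calls of IAA1 and IAA18 were lost with no block, which left a count of 1, and in 9 and 7 of 12 fits that left out a library or a batch. The count was also 1 without replicate 2 or 4 at 15 min on 10 mM, replicate 2 or 3 at 0 min, or batch 2.

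Of 15 tested genes of lateral root initiation 0 rose and 1 fell at 15 min (median 0.09). GATA23 (AT5G26930), which marks founder cells, was at 0.28 ± 0.40, and LBD16 (AT2G42430), which acts in the first division, at -0.24 ± 0.26. Neither was called, and their low levels, 3.87 ± 1.07 and 5.15 ± 2.53 CPM at 15 min on 10 mM against 2.95 ± 1.43 and 5.89 ± 1.28 CPM at 0 min (SD, n = 4 each), limit what could be seen. KRP2 (AT3G50630), an inhibitor of the cell cycle, had 20.1, 23.98, 32.2 and 36.2 CPM at 15 min on 10 mM, against 31.6, 34.002, 52.6 and 58.7 CPM at 0 min. The groups overlapped, but each batch was lower at 15 min, with a change of -0.65 ± 0.12 (edgeR adjusted p = 1.09e-04, and 0.151 with no block).

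Of 9 tested morning genes of the circadian clock 0 rose and 4 fell (3 with no block), with 9 negative estimates and a median of -0.57. At 15 min on fresh 1 mM KNO3, against the same 0 min libraries, 5 were called lower and the median was -0.64. CCA1 (AT2G46830), a repressor that peaks at dawn, had 47.3, 49.5, 39.6 and 48.8 CPM at 15 min on 10 mM, against 69.4, 71.3, 71.1 and 73.6 CPM at 0 min, without overlap. It changed by -0.62 ± 0.12 (edgeR adjusted p = 2.40e-04), RVE8 by -0.71 ± 0.13, RVE1 by -0.92 ± 0.26 (not called in 6 of 12 fits that left out a library or a batch, 0.0615 to 0.164), and LHY by -0.57 ± 0.12 (not called with no block, adjusted p = 0.148). Of 11 day and evening genes 0 were called. The plants at 15 min on 10 mM were also 15 min further into the day, which cannot be told apart from the move.

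The 10 steepest falls with a mean log2 CPM of at least 1 and 1 direction in 4 of 4 batches had log2 changes of -1.28 to -1.69. LSU4 (AT5G24655), of a family induced by low sulfur, had 4.53, 12.3, 9.50 and 14.3 CPM at 15 min on 10 mM, against 26.4, 22.4, 37.96 and 53.3 CPM at 0 min. LBD4 (AT1G31320) had 16.6, 16.3, 12.4 and 21.1 CPM at 15 min on 10 mM, against 43.5, 37.3, 46.4 and 47.3 CPM at 0 min. Neither overlapped, with changes of -1.69 ± 0.20 and -1.38 ± 0.14. The factors NAC100 (AT5G61430) and tny (AT5G25810), a DREB-type gene, were at -1.63 ± 0.27 and -1.30 ± 0.17, and the SAUR-like gene AT1G16510, of a family of early auxin targets, at -1.46 ± 0.22. ABCB9 (AT4G18050), a P-glycoprotein transporter, was at -1.68 ± 0.33 (edgeR adjusted p = 0.0573 without batch 3). In CPM the largest losses were those of UBQ10 and UBQ3, polyubiquitin genes, of UGT72E2 (AT5G66690), a glycosyltransferase of lignin precursors, and of AT1G64590. UGT72E2 had 128, 236, 215 and 195 CPM at 15 min on 10 mM, against 271, 355, 355 and 367 CPM at 0 min, without overlap, and changed by -0.81 ± 0.11. UBQ10, UBQ3 and AT1G64590 were at -0.39 ± 0.12, -0.37 ± 0.10 and -0.81 ± 0.15 and were not called with no block (edgeR adjusted p = 0.492, 0.0605 and 0.158). UBQ10 was also not called in 9 of 12 fits that left out a library or a batch (0.0552 to 0.286), and UBQ3 in 3 of 12 (0.0511 to 0.162).

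Of 13 abscisic acid genes 2 were called, both higher, NCED3 (AT3G14440), which makes the first committed step of the hormone's synthesis, at 2.29 ± 0.66 and PYL5 (AT5G05440), a receptor, at 0.96 ± 0.16. NCED3 was not called with no block (edgeR adjusted p = 0.0666) or in 5 of 12 fits that left out a library or a batch (0.0612 to 0.339), those without replicate 3 at 15 min on 10 mM, replicate 3 or 4 at 0 min, and batch 1 or 3, which left a count of 1. With only the 8 libraries compared the list had 3 higher and 1 lower. Of 15 aquaporin genes 0 were called, with 14 negative estimates and a median of -0.21, and 3 were called lower with only the 8 libraries compared. Of 8 low oxygen genes 1 was called, HB1 at 0.66 ± 0.21, which was not called with no block (0.642) or in 8 of 12 fits that left out a library or a batch (0.0567 to 0.366): each of the 8 libraries but replicate 3 of both groups, and batches 2 and 4. Of 11 heat shock genes HSFB2A rose, by 0.76 ± 0.16. Over all genes tested 5.56% were called higher, so 1 call among 8 or 11 genes says little about these lists.

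Against 0 min, the fresh plate, the added nitrate, the added potassium and the elapsed time cannot be told apart, so the 4 libraries of 15 min on fresh 1 mM KNO3 were set beside the 10 mM ones. Between 10 mM and 1 mM at 15 min, edgeR's test called 2 genes (0.0107% of those tested), 0 higher and 2 lower on 10 mM, and 848 genes had an unadjusted p below 0.05, 347 higher and 501 lower. JAZ10 had 74.5, 29.9, 61.5 and 57.5 CPM on 10 mM, against 97.3, 77.2, 95.2 and 122 CPM on 1 mM, a log2 difference of -0.89 ± 0.16 (edgeR adjusted p = 0.0182). AT2G02680, of the C1 domain family, had 18.1, 7.43, 10.6 and 10.3 CPM on 10 mM, against 23.5, 18.4, 24.6 and 27.4 CPM on 1 mM, -1.14 ± 0.20 (edgeR adjusted p = 0.0133). JAZ10 was lower on 10 mM in 4 of 4 batches and AT2G02680 in 4 of 4. With no block their edgeR adjusted p was 1.00 and 0.986. In 12 fits that left out a library or a batch, JAZ10 was not called in 10 (adjusted p 0.00236 to 0.847 over the 12) and AT2G02680 not in 8 (0.00213 to 0.796), and leaving out replicate 4 on 1 mM gave the highest p for JAZ10. The count was 0 with no block, 12 by DESeq2, 21 with no filter on low counts, 0 to 4 with 1 library or batch left out and 7 without replicate 4 of 1 mM at 45 min. With only the 8 libraries of this comparison fitted it was 101, 13 higher and 88 lower, with JAZ1, JAZ2, JAZ5, JAZ6, JAZ7, JAZ9 and JAZ10 among the lower ones.

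The comparisons of each supply with 0 min share the 0 min libraries, so only their own values are given. On 1 mM 1808 genes were called against 0 min (9.63% of those tested), 1296 higher (6.91%) and 512 lower (2.73%). The JAZ genes had a median of 2.58 on 10 mM and 3.13 on 1 mM, with 9 called higher in each. Their differences between the supplies were negative for 9 of 12 genes, with a median of -0.47 against -0.00024 over all genes tested, and 7 of 12 had an unadjusted p below 0.05. For nitrate reduction and its reductant the medians were 0.45 on 10 mM and 0.31 on 1 mM, with 9 and 4 called higher. The differences were positive for 10 of 12 genes (median 0.16), and of the 12 none was called, with NIA1 at 0.26 ± 0.16, NIR1 at 0.20 ± 0.13 and G6PD3 at 0.42 ± 0.15. Some other lists leaned the same way, so the lean was not particular to these genes. Differences were positive for 8 of 8 root hair markers (median 0.135) and 7 of 10 type-A ARR genes (0.23). They were also positive for 13 of 18 nitrate transporters (0.085) and 11 of 15 aquaporins (0.040). G6PD3 was called higher on 10 mM with only the 8 libraries compared (0.42, edgeR adjusted p = 0.0222). Nitrate regulators had medians of 0.30 on 10 mM and 0.24 on 1 mM. On 10 mM 11 were called higher and 1 lower, and on 1 mM 12 higher and 1 lower. Their differences between the supplies were positive for 16 of 30 and negative for 14 (median 0.0065). With only the 8 libraries compared CBL1 was called lower on 10 mM (-0.57, edgeR adjusted p = 0.0015). Touch and calcium genes had medians of 1.40 on 10 mM and 1.34 on 1 mM, while their differences between the supplies were negative for 13 of 15 (median -0.15, 4 with an unadjusted p below 0.05). ERF and DREB genes had medians of 2.90 on 10 mM and 2.96 on 1 mM, and negative differences for 13 of 18 (median -0.21, 5 with an unadjusted p below 0.05). Over 0 min, TCH4 was at 4.69 ± 0.30 on 10 mM and 5.21 ± 0.30 on 1 mM, with a difference of -0.52 ± 0.19 that was not called in the fit of all libraries. With only the 8 libraries compared it was called (-0.50, edgeR adjusted p = 0.0277), as were CML38, CML12, RRTF1 and RAP2.6, all lower on 10 mM.

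**Figure D4:**
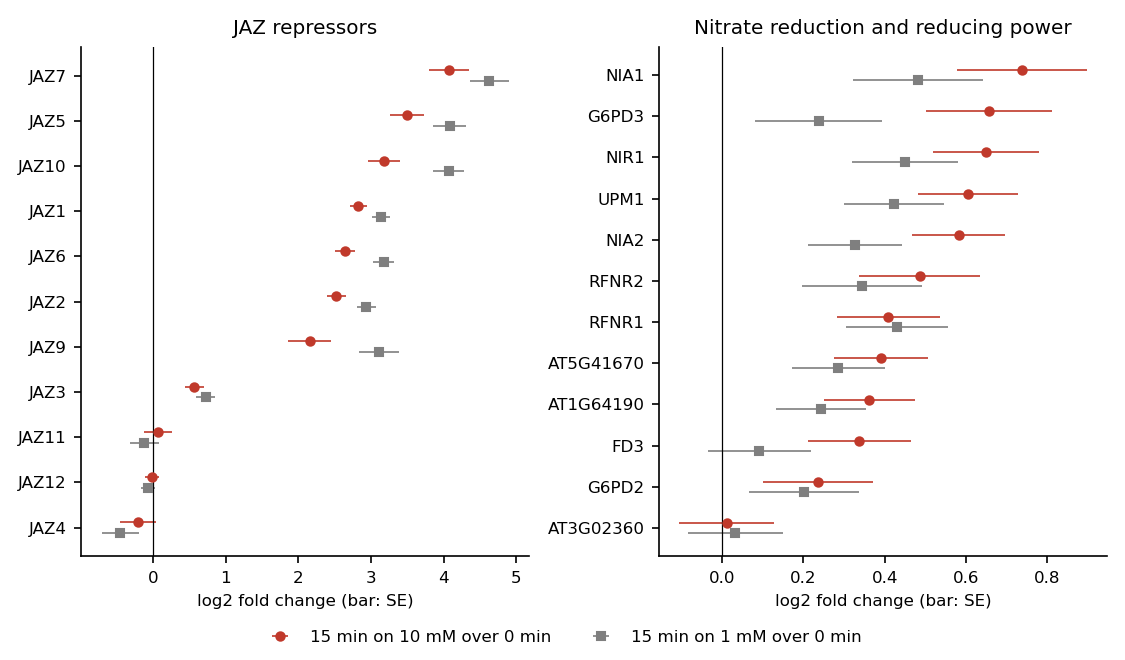
Log2 fold change over 0 min (x axis; bars are SE) of 11 JAZ genes (left panel; JAZ8, with no read at 0 min, is not drawn) and 12 genes of nitrate reduction and its reductant (right panel). Red circles are 15 min on 10 mM and grey squares 15 min on 1 mM, both against the same 0 min libraries. Most JAZ circles lie left of their squares and most reduction circles lie right, and of these genes only JAZ10 differed between the supplies in the test.

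Levels of the named genes on 10 mM at later times are given as a description, with no test. RRTF1 averaged 0.739 ± 0.649, 79.999 ± 23.7, 19.4 ± 5.24, 2.76 ± 0.919 and 1.54 ± 0.586 CPM at 0, 15, 45, 90 and 180 min (SD, n = 4 each). TCH4 averaged 1.97 ± 0.598, 48.2 ± 7.76, 6.66 ± 3.13, 3.66 ± 0.604 and 2.51 ± 0.786 CPM at the same times. Both means were highest at 15 min and lower at each later time. JAZ10 averaged 6.09 ± 0.883, 55.8 ± 18.7, 105 ± 29.3, 65.2 ± 23.1 and 14.4 ± 4.29 CPM and so was highest at 45 min. NIA1 averaged 117 ± 13.2, 198 ± 24.1, 309 ± 98.2, 271 ± 36.1 and 384 ± 120.1 CPM. LBD38 averaged 24.999 ± 7.07, 71.1 ± 9.52, 121 ± 5.32, 118 ± 18.7 and 125 ± 19.1 CPM, and these nitrate genes stayed above their 0 min mean at each later time. CCA1 averaged 71.3 ± 1.76, 46.3 ± 4.57, 29.8 ± 2.24, 26.3 ± 5.96 and 8.83 ± 1.65 CPM and went on falling in mean level through 180 min.

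**Figure D5:**
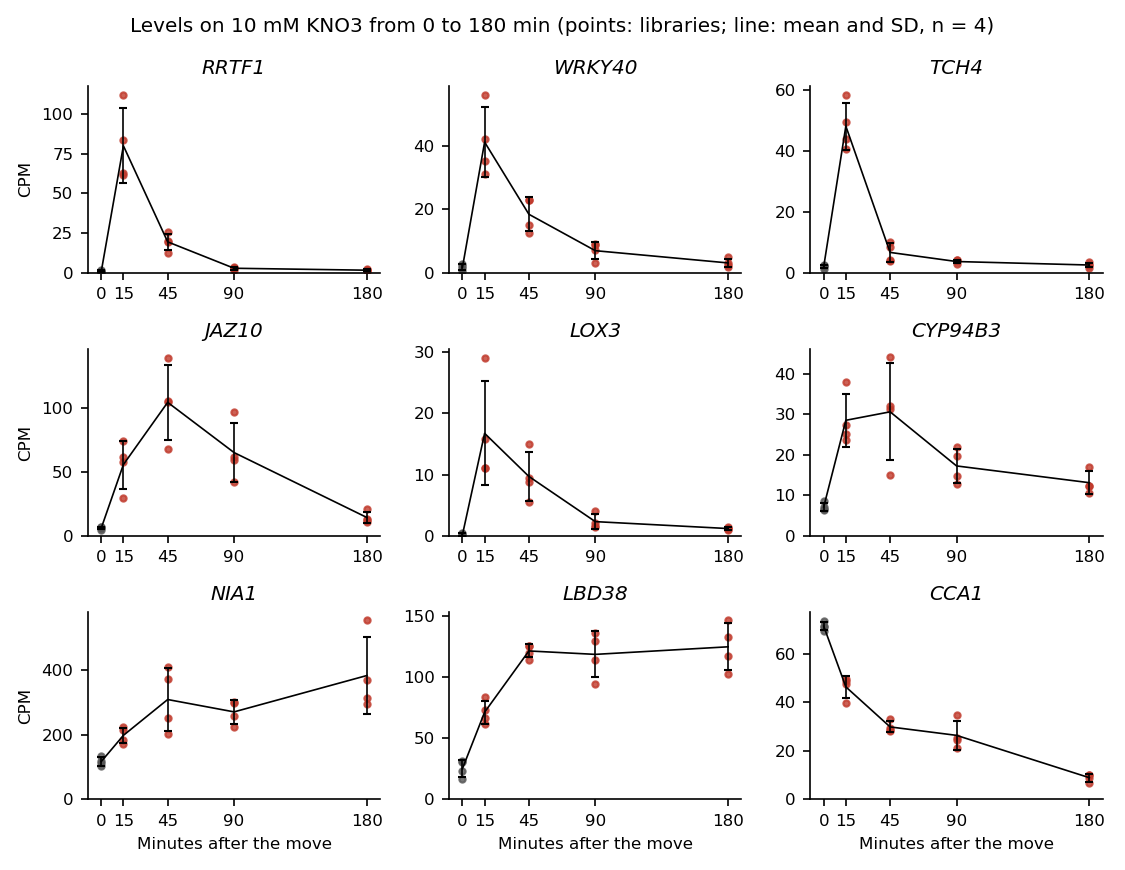
CPM (y axis, from 0) of 9 genes at 0 min and after 15, 45, 90 and 180 min on 10 mM (x axis). Points are libraries, grey at 0 min and red on 10 mM, and the line joins means with SD (n = 4). RRTF1, WRKY40, TCH4 and LOX3 peak at 15 min, JAZ10 at 45 min, NIA1 and LBD38 stay high, and CCA1 declines.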

How the data were processed

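Poly-A RNA of root samples was read as BrAD-seq 3' libraries. The authors deposited raw counts per gene, 1 table per library; FastQC, Bowtie2, SAMtools, HTSeq and the build TAIR10 are named per the submitters' processing notes. Their versions and settings, the counting strand and the annotation release were not stated in the sources used, so reads of overlapping, antisense or near-identical genes could not be separated.

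From the counts, edgeR 4.0.16 (R 4.3.3, limma 3.58.1) fitted its quasi-likelihood model to all 36 libraries in 9 groups with TMM scaling, filterByExpr over the groups (18768 of 32833 identifiers kept) and the batch number as a block. Tests were two-sided, with Benjamini-Hochberg adjustment over all genes tested and no minimum fold; SE was taken as |log2 fold change| divided by the root of the F statistic. The labels name the numbers as batches, and deviations of libraries with the same number correlated at 0.32, 0.162, 0.144 and 0.377, each over 0.1. The highest correlations with a 0 min library of another number were 0.0802, -0.00811, 0.107 and 0.289, so those of batches 3 and 4 also passed 0.1. Alternatives were no block, RLE scaling, no filter on low counts, only the 8 libraries compared, DESeq2 1.42.0, a 2-fold minimum, leaving out each library or batch and, chosen after seeing the data, leaving out replicate 4 of 1 mM at 45 min, which had the lowest total (1376404) and the lowest median correlation with its group mates (0.9117). In simulated counts for 10 mM at 15 min against 0 min over 18292 genes, 35.8%, 67.2% and 92.4% of genes changed 1.5-, 2- and 4-fold were recovered, with 5 false calls. The changed genes were drawn from those with a mean above 1 CPM. Apart from these changes all simulated libraries shared the 0 min means, with no batch effect. The figures therefore do not give recovery at lower levels or under the batch effects of the real libraries.

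The 33 gene lists (406 of 443 members tested) and the members were chosen with earlier results of these data known. The text names the 10 largest rises and falls with mean log2 CPM of at least 1 and 1 direction in 4 batches, up to 4 called members per list, a set of preset genes, called genes of 10 against 1 mM and the 4 largest gains and losses in CPM, of which a selection is described; other list members were chosen after their values were seen. Symbols and promoters are from RefSeq TAIR10.1, whose identifiers matched 32548 of the files' 32833.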

Additional observations from a re-analysis of the deposited data

Results flagged for a closer look

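In 11 of 208 pairs of a named gene and a group, 1 library lay further from its mates than Dixon's 95% critical value for 4 samples allows; chance alone flags about 1 in 20 groups. At 15 min on 10 mM, replicate 3 was the highest for MYC2 (357.7 CPM) and LOX4 (40.1 CPM), replicate 1 for ARR9 (42.79 CPM) and HAK5 (31.71 CPM), while replicate 2 was the lowest for JAZ7 (40.32 CPM) and replicate 4 for NIA2 (314.6 CPM). At 0 min, replicate 1 was the highest for ORA47 (0.5176 CPM, its 1 read) and ACS11 (3.623 CPM) and the lowest for EXO (13.97 CPM) and UGT72E2 (271.2 CPM), and replicate 3 was the highest for DDF1 (0.1422 CPM, its 1 read).

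The difference between the supplies at 15 min was itself tested, and JAZ10 (-0.8861 on the log2 scale, edgeR adjusted p = 0.0182) and AT2G02680 (-1.142, 0.0133) were lower on 10 mM than on 1 mM. Without the replicate block the adjusted p was 1.00 for JAZ10 and 0.986 for AT2G02680.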

How the results depend on the processing

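The count of 1338 genes at 15 min on 10 mM against 0 min was 968 with no replicate block, 1341 with RLE scaling, 1441 with no filter, 1704 with only the 8 libraries compared, 1385 by DESeq2, 1493 without replicate 4 of 1 mM at 45 min and 622 with a 2-fold minimum. Leaving out a library or a batch gave 935 to 1246. The count of 2 between 10 mM and 1 mM at 15 min was 0 with no block, 21 with no filter, 101 with only the 8 libraries compared, 12 by DESeq2, 7 without replicate 4 of 1 mM at 45 min, 1 with a 2-fold minimum and 0 to 4 with a library or batch left out. The cause of these shifts was not tested.

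Of 104 named genes 96 were called, and 71 of those kept call and direction in each of the 18 alternatives that gave a value. No value was given for 3 pairs of a named gene and an alternative. Without the replicate block 16 calls were lost and no other call changed: NPF7.3, bZIP1, EBF1, ARR7, ARR9, CKX5, IAA1, IAA18, KRP2, LHY, NCED3, HB1, GSTF8, UBQ10, UBQ3 and AT1G64590. NPF6.3, which was not called, changed sign to -0.0012 with no block and ranged from -0.0771 to 0.0712 with a library and from -0.1033 to 0.0854 with a batch left out. Replicate 1 was shallowest, so genes of few reads were measured least well there.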
